A study of Arabidopsis thaliana with 9 samples.

Results

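The genes described here are the 78 Arabidopsis thaliana genes, of 33602 in the deposited table, whose deposited description names the SAUR-like auxin-responsive protein family. The description alone decides which genes are members. Transcript levels were measured in whole siliques, the seed pods with the seeds inside, at 12 days past anthesis from 3 kinds of greenhouse-grown plant, with 3 libraries each. The overexpression plants carried SCL15, a GRAS family transcription regulator gene, driven by the napin promoter, taken from a storage protein gene active in seeds, while the whole silique was sampled. The knockout plants were labelled scl15 and described as without a functional gene, and the wild type plants were of the Columbia background. The labels call the libraries biological replicates, but do not say how many plants or independent transformants each line stands for, and each p-value below is set against the spread between these libraries.

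SAUR genes, for small auxin up RNA, encode short plant proteins whose transcripts are among the quickest to respond to auxin. Auxin is bound by receptors of the TIR1 and AFB family, which then mark the Aux/IAA repressors for destruction and free the auxin response factors (ARFs) that bind DNA. SAUR proteins of the SAUR19 type inhibit phosphatases of the PP2C.D group, which otherwise keep proton pumps of the plasma membrane inactive, and an active pump acidifies the cell wall and lets the cell expand. Members of the family differ in what induces them, with light, temperature, brassinosteroids and senescence among the known inducers besides auxin.

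SCL15 itself stood at 526, 569 and 556 TPM in overexpression libraries, at 6.31, 6.39 and 4.82 TPM in knockout libraries and at 14.4, 16.2 and 10.7 TPM in wild type libraries. TPM are length-corrected shares of all transcripts, so every library sums to the same total and its depth is unknown. The groups of SCL15 values did not overlap, and the knockout libraries still held SCL15 transcript at a log2 fold change of -1.10 (SE 0.15) against wild type. Between 19679 and 21855 genes were above 0 in a library. The 7 embryo storage markers, which define the seed part of the silique, were all present and summed to 369737 to 410692 TPM in overexpression libraries, 256040 to 263967 TPM in knockout libraries and 261400 to 277305 TPM in wild type libraries. In a silique, fewer cells of a type and less RNA per cell cannot be told apart.

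In all 3 lines a few members made up most of the SAUR transcript. Summed over the 78 members, the level was 281, 266 and 352 TPM in overexpression libraries, 481, 509 and 610 TPM in knockout libraries and 417, 439 and 430 TPM in wild type libraries. The groups did not overlap, with the overexpression line lowest and the knockout highest. After median-ratio scaling, which sets the typical gene equal across libraries, the group means were 352.5 ± 39.9 TPM in overexpression, 467 ± 73.2 TPM in knockout and 402 ± 0.792 TPM in wild type libraries (SD, n = 3 each), so the order of the means held. On that scale the knockout range, 399 to 545 TPM, overlapped the wild type range, 401 to 403 TPM.

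**Figure D1:**
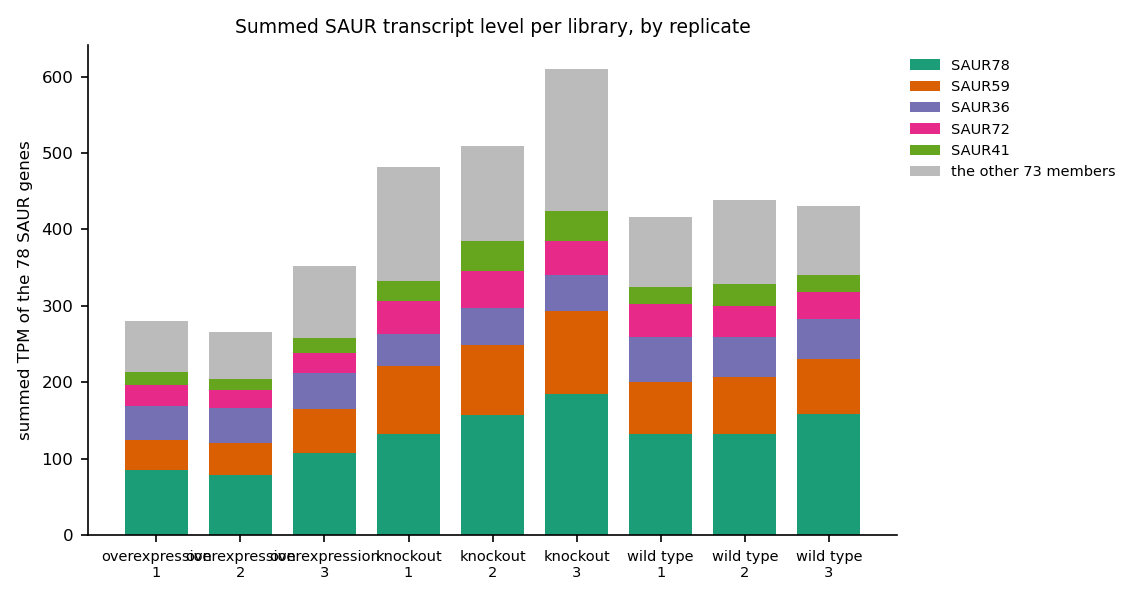
Summed TPM of the 78 SAUR genes in each of the 9 libraries (bars from 0), stacked by the 5 members of highest mean level and the rest. The overexpression bars lie between 266 and 352 TPM, the knockout bars between 481 and 610 TPM and the wild type bars between 417 and 439 TPM.

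SAUR78, SAUR59, SAUR36, SAUR72 and SAUR41 held 69.0% to 79.2% of this sum in every library, and were the only members with a mean of at least 20 TPM. SAUR78, whose protein is reported to bind ethylene receptors, averaged 90.6 ± 15.0 TPM in overexpression, 158 ± 25.8 TPM in knockout and 141 ± 15.0 TPM in wild type siliques (SD, n = 3 each). SAUR36, which promotes leaf senescence, stood at 43.8, 46.8 and 47.2 TPM in overexpression, 41.3, 48.8 and 47.3 TPM in knockout and 58.2, 52.7 and 52.9 TPM in wild type libraries. It passed the test in neither line against wild type, although its overexpression and knockout ranges both lay below wild type. SAUR41 and SAUR72 belong to a subfamily of 4 genes that promotes cell expansion. The sum of that subfamily was 38.7 to 47.9 TPM in overexpression, 72.8 to 92.7 TPM in knockout and 59.0 to 70.5 TPM in wild type libraries, most of it from SAUR41 and SAUR72.

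Most of the family was barely transcribed. Of the 78 members, 20 were listed at 0 in all 9 libraries, 24 were above 0 in all of them, and 26 reached the mean of 1 TPM over all libraries that was required for testing. Of these 26, 6 averaged under 1 TPM in overexpression, 1 in knockout and 3 in wild type siliques, so some passed through the group in which they were high. Between 33 and 38 members were above 0 in an overexpression library, 42 to 48 in a knockout library and 37 or 38 in a wild type library. Over all genes these numbers were 19679 to 20955, 20707 to 21855 and 20990 to 21469 in the same order of lines. The lowest value above 0 among members ran from 0.0705 to 0.251 TPM between libraries, and a lower level would not have been seen.

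The members are small genes spread over the 5 chromosomes, with 20, 11, 14, 18 and 15 on chromosomes 1 to 5 in the TAIR10.1 annotation. Their coding sequences run from 261 to 573 bases with a median of 363, and 71 of the 78 have a single exon. In all, 27 members sit in 5 tandem arrays, taken as at least 4 members with gaps of at most 10 kb. Near-identical copies are concentrated in SAUR19 to SAUR24, which hold 11 of the 12 pairs with coding identity of at least 90%, and SAUR62 is 97.0% identical to SAUR75. Reads may be shared between such copies, so their single values are uncertain.

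The knockout was compared with wild type to see which SAUR transcripts change where SCL15 function is lost. In knockout siliques 6 of the 26 tested members rose, 2 fell and 18 were not past the threshold, an adjusted p of 0.05 from limma with Benjamini-Hochberg adjustment over all 16555 tested genes. SAUR12 and SAUR16 rose most, with ratios of mean TPM of 8.27 and 7.73, followed by SAUR6, SAUR14, SAUR50 and SAUR32. SAUR31 and SAUR55 fell, to ratios of 0.371 and 0.179. The risen members were 23.1% of those tested, against 9.18% of all tested genes, and the fallen ones 7.69%, against 6.31% of all. The median log2 fold change was 0.45 over the tested members and 0.10 over all tested genes.

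The promoters of SAUR12, SAUR14, SAUR16 and SAUR50, which lie in 3 places, are printed as examples of members that rose in the knockout. SAUR6 and SAUR32 rose too and are not printed. Each run is the 250 bases before the annotated transcript start, read from the TAIR10.1 reference of RefSeq in the gene's own direction. Capitals mark ACGTG in either orientation, the core of sites bound by many plant factors of the bZIP and bHLH families, which include the PIFs.
SAUR12, chr2:9088976-9089225, plus strand: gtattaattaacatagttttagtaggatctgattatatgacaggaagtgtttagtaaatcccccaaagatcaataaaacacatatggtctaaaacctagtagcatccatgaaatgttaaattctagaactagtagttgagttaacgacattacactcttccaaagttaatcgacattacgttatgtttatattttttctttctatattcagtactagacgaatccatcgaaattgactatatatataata
SAUR16, chr4:18129987-18130236, plus strand: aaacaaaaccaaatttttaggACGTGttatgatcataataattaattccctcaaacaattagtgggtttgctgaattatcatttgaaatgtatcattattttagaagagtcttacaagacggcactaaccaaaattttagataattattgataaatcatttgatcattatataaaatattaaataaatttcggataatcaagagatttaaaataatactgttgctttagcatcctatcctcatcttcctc
SAUR14, chr4:18125560-18125809, minus strand: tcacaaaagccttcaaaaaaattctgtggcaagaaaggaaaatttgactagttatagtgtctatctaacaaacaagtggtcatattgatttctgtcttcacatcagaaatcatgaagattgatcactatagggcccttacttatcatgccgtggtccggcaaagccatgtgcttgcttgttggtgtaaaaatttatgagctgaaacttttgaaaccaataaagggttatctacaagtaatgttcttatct
SAUR50, chr4:16583076-16583325, minus strand: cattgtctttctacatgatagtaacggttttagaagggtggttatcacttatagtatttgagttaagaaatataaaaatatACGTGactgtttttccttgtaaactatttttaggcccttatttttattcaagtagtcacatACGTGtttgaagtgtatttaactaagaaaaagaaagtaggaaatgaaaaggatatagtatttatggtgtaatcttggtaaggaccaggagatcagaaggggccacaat

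SAUR16 holds ACGTG once, 229 bases before the start, and SAUR50 holds it at 169 and 108 bases, while SAUR12 and SAUR14 have none in this window. The promoters of SAUR6 and SAUR32, not printed, have none either. In all, 5 motifs were searched on both strands, and a match is a description of these letters only. TGTCTC, an element bound by ARFs, was in 7 of 78 member promoters and 10.9% of 27443 promoters of the same length, and TGTCGG, a variant ARFs bind tightly, was in 2 and in 4.16% of all. None of the 26 tested members had either, and among those with TGTCTC were the barely transcribed SAUR15, SAUR20 and SAUR62. CATGCA, the core of the RY element of seed promoters, was in 11 member promoters, 2 of them of tested members, and in 8.43% of all. ACGTG, added after the promoters had been read, was in 8 of 78 member promoters (10.3%) and in 22.9% of all. Among the 26 tested members, ACGTG was in 6 promoters, a share near that of all promoters. It includes every CACGTG, the G-box, which was in 1 member promoter and in 6.49% of all.

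SAUR12 stood at 12.9, 7.75 and 24.1 TPM in knockout libraries, against 2.14, 0.261 and 3.01 TPM in wild type libraries. All knockout values lay above all wild type values, with a wide spread within each line. Its log2 fold change was 2.53 (SE 0.43, adjusted p = 0.00109, limma with Benjamini-Hochberg adjustment). In the overexpression line it was at 0.168, 0.491 and 1.39 TPM, overlapping wild type. The members called in the knockout were picked by the test on these same values, and lack of overlap was not counted over all genes.

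SAUR16, induced by light in cotyledons and needed for their opening, stood at 17.2, 13.3 and 25.2 TPM in knockout libraries, against 3.18, 2.09 and 1.94 TPM in wild type libraries. All knockout values lay far above all wild type values, with a log2 fold change of 2.50 (SE 0.29, limma adjusted p = 6.46e-05). The overexpression libraries had 1.03, 0.377 and 2.31 TPM. SAUR16 is the closest relative of SAUR12 in the family, with 85.5% identical coding bases, although the 2 genes lie on chromosomes 4 and 2.

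SAUR14, also light-induced in cotyledons, was listed at 0 in all overexpression libraries, stood at 3.99, 3.93 and 3.71 TPM in knockout libraries and at 1.35, 1.31 and 0.360 TPM in wild type libraries. The 3 lines did not overlap. Its rise in the knockout was 1.32 on the log2 scale (SE 0.23, limma adjusted p = 0.00137). SAUR14 averaged 3.88 TPM in knockout and 1.01 TPM in wild type libraries, so it passed the filter only through the knockout. SAUR6, at 4.97, 5.41 and 5.90 TPM in knockout libraries and 1.24, 2.54 and 0.698 TPM in wild type libraries, rose by 1.43 (SE 0.28, limma adjusted p = 0.00326) without overlap. SAUR6 overlaps SAUR7 on the same strand, so reads in the shared bases could count for either.

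SAUR50, which acts with SAUR16 in cotyledon opening, stood at 11.4, 8.08 and 18.3 TPM in knockout libraries, against 4.87, 4.20 and 7.01 TPM in wild type libraries. The ranges did not overlap, and the log2 fold change was 1.05 (SE 0.29, limma adjusted p = 0.0262). SAUR8, the member most like SAUR50 with 82.9% identical coding bases and overlapped by a gene on the opposite strand, did not pass the test, at 4.33, 2.56 and 3.56 TPM in knockout and 2.63, 1.99 and 3.83 TPM in wild type libraries. SAUR32, named for its part in the apical hook of seedlings, averaged 26.5 ± 3.1 TPM in knockout and 17.7 ± 2.13 TPM in wild type siliques (SD, n = 3 each), a log2 fold change of 0.56 (SE 0.18, limma adjusted p = 0.0499).

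SAUR31 fell to 8.26, 5.56 and 3.38 TPM in knockout libraries, against 15.6, 20.4 and 10.2 TPM in wild type libraries. The ranges did not overlap, with a log2 fold change of -1.30 (SE 0.29, limma adjusted p = 0.00658). The gene overlaps AT4G00883 on the opposite strand, and whether counting used strand is not given in the sources used here. SAUR55 had 0.359, 0.870 and 0.628 TPM in knockout libraries, against 2.58, 5.98 and 1.81 TPM in wild type libraries. Its log2 fold change was -1.36 (SE 0.35, limma adjusted p = 0.0157). SAUR55 averaged 0.619 TPM in knockout, 1.15 TPM in overexpression and 3.46 TPM in wild type libraries, so only wild type carried it past the filter.

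**Figure D2:**
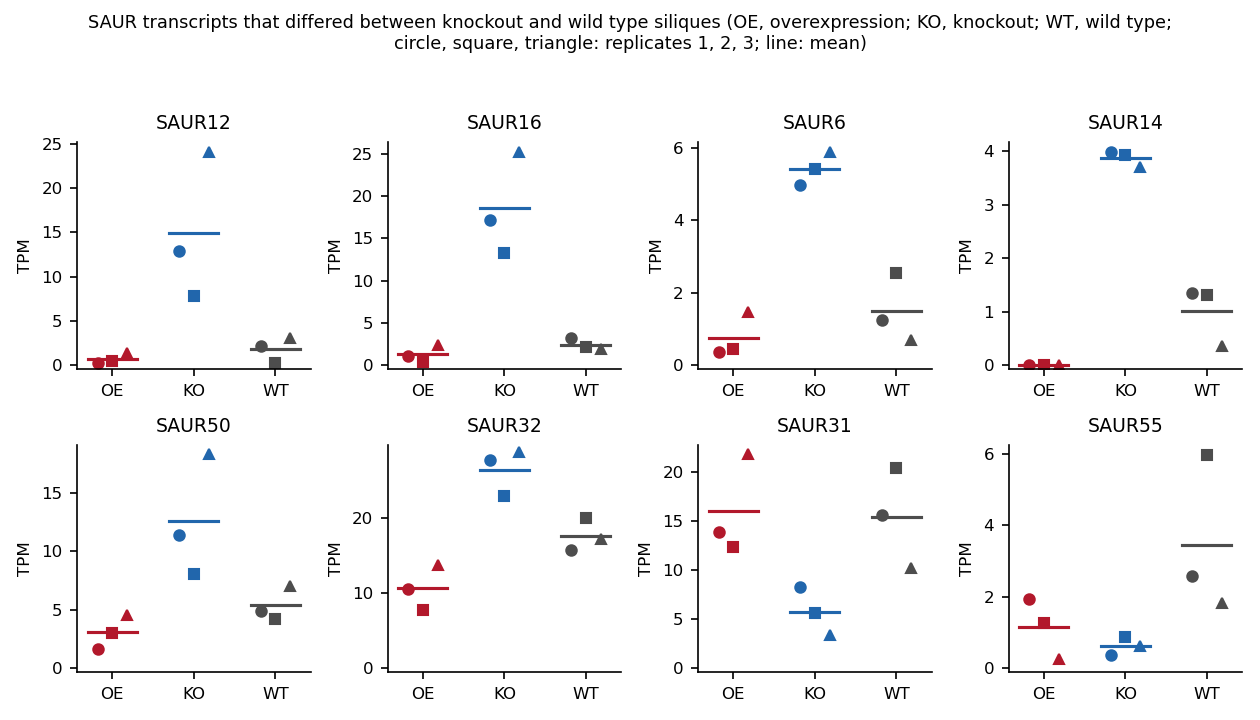
TPM in each library for the 8 SAUR members that passed the test between knockout (KO) and wild type (WT), with overexpression (OE) alongside. Points are libraries and lines are means of 3 libraries, and in each panel all knockout points lie on one side of all wild type points. The members shown were picked by the test on these same values, and lack of overlap was not counted over all genes.

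The rises of SAUR6, SAUR12, SAUR14 and SAUR16 and the fall of SAUR31 stayed past the threshold under every alternative processing in which they were tested and without any single library. Of the 6 risen members, 5 were highest in knockout replicate 3, and without it the log2 fold changes of SAUR12 and SAUR16 were 2.13 and 2.26. SAUR50 was not past without knockout replicate 1 or 3 or wild type replicate 1 or 2, SAUR55 without knockout replicate 1 or wild type replicate 2, and SAUR32 without any one of 6 libraries. SAUR32 was also not past with any other scaling, with either other pseudocount, without the abundance trend or with no filter on low values. SAUR50 was also not past with quantile normalization or with no filter. Without wild type replicate 2, 5 members were called in place of 8. Among all genes, 1519 were higher, a number that fell to 875 without knockout replicate 1 and 896 without wild type replicate 1. With median-ratio scaling 5 members were higher and 2 lower, against 5.99% of all genes higher and 7.8% lower.

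The 18 members that were not past ran from -0.66 to 0.76 in log2 fold change. They included the abundant SAUR59 (0.41, SE 0.14), SAUR41 (0.47, SE 0.18), SAUR72 (0.20, SE 0.12) and SAUR78 (0.16, SE 0.15). SAUR74 was at 0.901, 1.09 and 3.25 TPM in knockout libraries, against 2.84, 3.95 and 2.49 TPM in wild type libraries, with replicate 3 of the knockout standing apart from the other two. Without that library SAUR74 was called lower, at -1.02 (SE 0.21), in place of -0.66. SAUR71, of the SAUR41 subfamily, stood at 2.79, 4.28 and 0.572 TPM in knockout libraries, against 1.57, 1.15 and 1.01 TPM in wild type libraries. Its log2 fold change was 0.50 (SE 0.34), and without knockout replicate 3 it was called higher, at 1.01 (SE 0.22).

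Some of the risen members lay close to relatives at or near 0. SAUR14 and SAUR16 belong to the array of 4 members on chromosome 4 around SAUR15, known as SAUR-AC1, in the region 18121526 to 18131284. SAUR14 and SAUR15 are divergent and 497 bases apart, and SAUR16 starts 3407 bases beyond SAUR15. SAUR15 itself stood at 0.569, 0.173 and 1.74 TPM in knockout libraries, against 0, 0.499 and 0.548 TPM in wild type libraries, and SAUR13 was above 0 in 1 library only. The sum over this array was 0.377 to 3.11 TPM in overexpression, 17.6 to 30.7 TPM in knockout and 2.84 to 4.53 TPM in wild type libraries.

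SAUR50 belongs to a second array on chromosome 4, of 7 members in the region 16577180 to 16599568. SAUR49, a gene tied to leaf senescence and 3730 bases from SAUR50, was at 5.72, 5.20 and 8.17 TPM in knockout and 3.82, 5.82 and 3.59 TPM in wild type libraries, which overlapped. SAUR2 to SAUR5 in the same array were at 0 in all libraries, and SAUR1 was at 0 in all but 1. SAUR12 and SAUR6 lie 3196 bases apart on chromosome 2, at 9089226 to 9090052 on the plus strand and 9084628 to 9086029 on the minus strand, with only 43.1% identical coding bases.

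**Figure D3:**
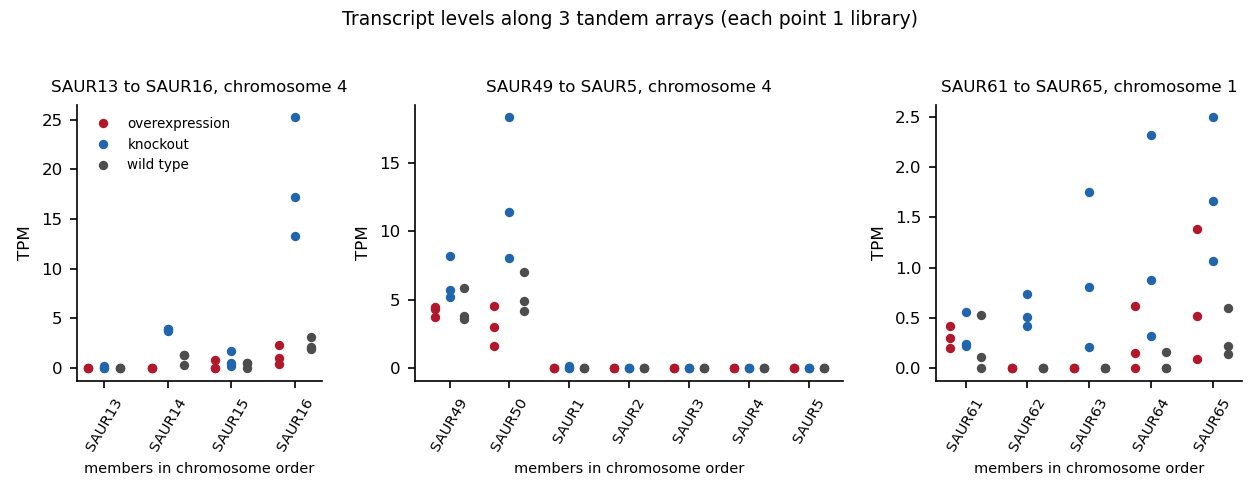
TPM of each library along 3 tandem arrays, with members in chromosome order and, for each member, overexpression, knockout and wild type from left to right. SAUR14, SAUR16 and SAUR50 are highest in the knockout, SAUR2 to SAUR5 are at 0, and SAUR62 and SAUR63 are above 0 in knockout libraries only.

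The members below the level filter were low in all lines, and 32 of these 52 were above 0 somewhere. The highest group mean was in the knockout for 22 of the 32, in wild type for 7 and in the overexpression line for 3. Of the 32, 9 were above 0 in knockout libraries only and 1 in wild type libraries only. The same counts over all genes below the filter were not made. Knockout replicates 1 and 2 also had the most genes above 0 of all libraries, 21855 and 21854. SAUR62 and SAUR63, of a subfamily that promotes elongation of hypocotyls and stamen filaments, stood at 0.423, 0.513 and 0.741 TPM and at 0.803, 1.75 and 0.211 TPM in knockout libraries. Both were listed at 0 in all other libraries, as was SAUR7, at 0.206, 0.187 and 0.135 TPM in knockout libraries. SAUR7 overlaps the higher SAUR6 on the same strand, so its values may hold reads of SAUR6. SAUR63 overlaps AT1G29435 on the opposite strand.

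The 8 genes SAUR61 to SAUR68 on chromosome 1, of which SAUR62 and SAUR63 are 2, summed to 0.870, 0.393 and 2.94 TPM in overexpression, 4.90, 5.003 and 6.73 TPM in knockout and 0.803, 0.599 and 0.743 TPM in wild type libraries. The knockout range lay above both others. When no filter on low values was applied, 9 of the 58 members then tested were higher in the knockout, against 6.15% of all genes then tested. SAUR7, SAUR52, SAUR62, SAUR63 and SAUR65 were among them, while SAUR32 and SAUR50 were not past. SAUR7, SAUR62 and SAUR63 entered this test only through the knockout libraries, the only ones in which they were above 0. SAUR19 to SAUR24, best known from elongating hypocotyls, never exceeded 0.967 TPM and had 2 members at 0 throughout. The 5 genes from SAUR29 to SAUR26 on chromosome 3 were at 0 in all libraries but for SAUR27 in 2 knockout libraries. Values this low rest on few reads, and their number is unknown.

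The overexpression line was compared with wild type to see which SAUR transcripts change with excess SCL15 in seeds. In overexpression siliques 7 of the 26 tested members fell and 19 were not past the threshold, while none rose, also at an unadjusted p of 0.05. The fallen members were 26.9% of those tested, against 23.4% of all tested genes, and the share of all genes that rose was 1.68%. The members' share is near the background, and the members' median of -0.51 stands beside -0.28 for all genes. The fallen members were SAUR14 and SAUR55 at low levels and SAUR32, SAUR59, SAUR78, SAUR72 and SAUR41 among the abundant ones.

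SAUR59 fell to 39.9, 40.9 and 57.3 TPM in overexpression libraries, against 68.0, 74.7 and 72.1 TPM in wild type libraries, a log2 fold change of -0.64 (SE 0.14, limma adjusted p = 0.00664). SAUR59 was the member whose promoter holds CACGTG, which occurs at 137 and 124 bases before the start, and capitals mark ACGTG and CACGTG here.
SAUR59, chr3:22434614-22434863, plus strand: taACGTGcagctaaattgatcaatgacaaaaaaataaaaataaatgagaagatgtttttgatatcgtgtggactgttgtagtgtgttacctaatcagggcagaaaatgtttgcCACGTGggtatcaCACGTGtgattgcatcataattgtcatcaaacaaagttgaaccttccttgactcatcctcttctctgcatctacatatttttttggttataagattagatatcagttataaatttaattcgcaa

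SAUR72, of the cell expansion subfamily, stood at 27.1, 23.0 and 26.2 TPM in overexpression libraries, against 43.1, 40.9 and 35.4 TPM in wild type libraries (log2 fold change -0.63, SE 0.12, limma adjusted p = 0.00337). SAUR41 of the same subfamily had 16.9, 13.9 and 19.6 TPM in overexpression libraries, against 22.8, 28.4 and 22.3 TPM in wild type libraries (-0.52, SE 0.18, limma adjusted p = 0.0458). SAUR78 (-0.64, SE 0.15) and SAUR32 (-0.70, SE 0.18) fell by similar amounts. For each of these 5 abundant members the overexpression range lay below the wild type range. They were picked because they passed on these same values, and how many of all genes lack overlap was not counted.

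SAUR14, at 0 in all overexpression libraries as given above, was called lower (limma adjusted p = 0.00998), and no fold is given against a group at 0. It was tested here only because its knockout level carried it past the filter. SAUR55 stood at 1.93, 1.26 and 0.251 TPM in overexpression libraries, against 2.58, 5.98 and 1.81 TPM in wild type libraries, and these ranges overlapped. Its log2 fold change was -1.03 (SE 0.35, limma adjusted p = 0.0437), and only its wild type level carried it past the filter. SAUR12, SAUR16, SAUR6 and SAUR50, which rose in the knockout, ran from -0.50 to -0.68 here and were not past, with overlapping ranges. SAUR31, the member that fell in the knockout past every alternative, was at 13.8, 12.3 and 21.9 TPM in overexpression libraries, overlapping wild type, and its log2 fold change was 0.06 (SE 0.29).

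These calls depended on scaling. With median-ratio scaling the median log2 fold change of all genes was -0.0040 in place of -0.28. The embryo storage markers given above took up the largest share of TPM in the overexpression libraries, and their part in this shift was not tested. With that scaling 1 member was called lower, SAUR14, against 3.59% of all genes. Quantile normalization and rescaling without ribosomal RNA and the 50 most abundant genes also left SAUR14 alone, a member that passed the filter only through the knockout. SAUR14, SAUR59, SAUR72 and SAUR78 stayed past without any single library. SAUR32 was not past without overexpression replicate 2, SAUR41 not without overexpression replicate 1 or 2 or any wild type library, and SAUR55 not without overexpression replicate 2 or 3, knockout replicate 1 or wild type replicate 1 or 2. Without overexpression replicate 2, 4 members were lower, and 2010 of all genes in place of 3871, which was 2568 or 2580 on leaving out replicate 1 or 3 of wild type. With the replicate number as a block, 10 members were lower, against 29.8% of all genes, the additional ones being SAUR16, SAUR50 and SAUR70.

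The overexpression line was also set directly against the knockout. Of the 26 tested members, 14 were lower in the overexpression line, 1 was higher and 11 were not past the threshold. The lower members were 53.8% of those tested, against 43.1% of all tested genes, and the higher one 3.85%, against 6.16% of all. The members' median log2 fold change was -0.80, beside -0.38 for all genes. With median-ratio scaling 11 members were lower, against 14.5% of all genes, and 3 were higher, against 13.3%, with medians of -0.45 for members and -0.0089 for all genes.

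SAUR16 and SAUR12, the members that rose most in the knockout, also had the largest differences between these lines. SAUR16 averaged 1.24 ± 0.982 TPM in overexpression and 18.6 ± 6.08 TPM in knockout siliques (SD, n = 3 each), a log2 fold change of -3.175 (SE 0.29, limma adjusted p = 2.35e-06). SAUR12 averaged 0.683 ± 0.633 TPM in overexpression and 14.9 ± 8.35 TPM in knockout siliques, a log2 fold change of -3.172 (SE 0.43, limma adjusted p = 5.39e-05). SAUR6 (-1.93, SE 0.28), SAUR50 (-1.73, SE 0.29) and SAUR32 (-1.26, SE 0.18), which also rose in the knockout, were lower too, and SAUR14 was again called lower from values of 0. These 6 were past in all alternatives in which they were tested, and in none of them did the overexpression and knockout ranges overlap. They were picked by their rise in the knockout, which uses the same knockout values, and lack of overlap was not counted over all genes.

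SAUR60, SAUR48, SAUR33 and SAUR51 passed here but against wild type in neither line. SAUR60 stood at 0.807, 0.687 and 0 TPM in overexpression libraries and 3.1704, 1.59 and 3.96 TPM in knockout libraries, with a log2 fold change of -1.38 (SE 0.28, limma adjusted p = 0.00133). SAUR48, at 0.768, 0.112 and 0 TPM in overexpression libraries and 1.27, 1.32 and 5.23 TPM in knockout libraries, had -1.35 (SE 0.38, limma adjusted p = 0.00943), and was not past when replicate 3 of both lines was left out. SAUR48 averaged 0.293 TPM in overexpression and 0.985 TPM in wild type libraries, so only the knockout, at 2.61 TPM, carried it past the filter. The same holds for SAUR60, at 0.498 TPM in overexpression, 1.29 TPM in wild type and 2.90 TPM in knockout libraries. SAUR60 also overlaps AT1G05557 and AT1G20480 on the opposite strand. Of the abundant members, SAUR59 (-1.06, SE 0.14), SAUR41 (-0.99, SE 0.18), SAUR72 (-0.83, SE 0.12) and SAUR78 (-0.80, SE 0.15) were lower. SAUR78 was not past with median-ratio scaling, at -0.37. SAUR33 (-0.87, SE 0.25) was not past without knockout replicate 1 or 3 or with that scaling, and SAUR51 (-0.81, SE 0.32), whose ranges overlapped, was not past without most single libraries, all 3 knockout ones among them. SAUR36 had a log2 fold change of 0.01 (SE 0.11) and was called higher, at 0.43, with median-ratio scaling, as was SAUR74, at 0.91. SAUR31 was the member higher in the overexpression line, by 1.36 (SE 0.29, limma adjusted p = 0.00159).

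**Figure D4:**
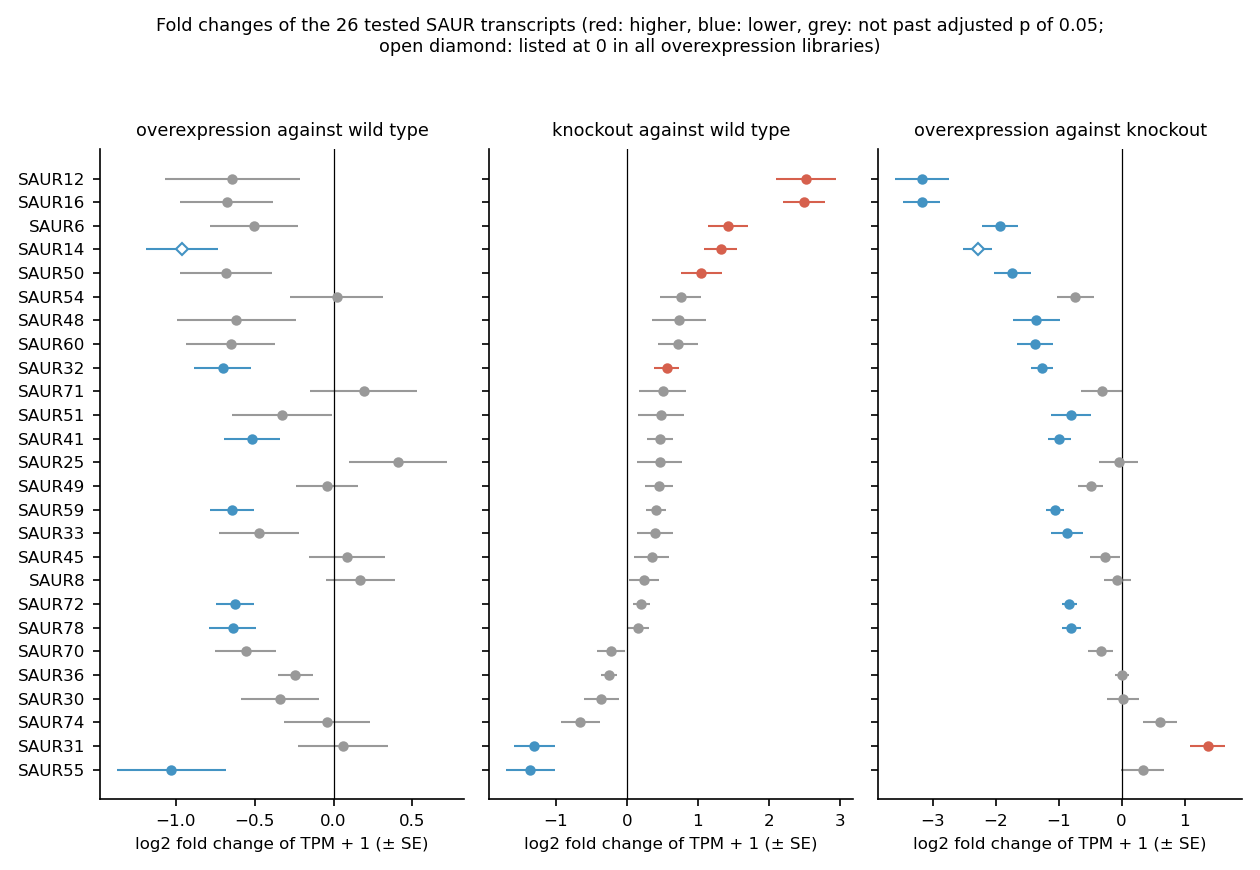
Log2 fold change of TPM + 1, with its SE, for the 26 tested SAUR members in 3 comparisons, sorted by the knockout value; red points are called higher, blue points lower and grey points are not past. SAUR12 and SAUR16 lie at 2.53 and 2.50 in the knockout and at -3.172 and -3.175 in the overexpression line against the knockout, and open diamonds mark SAUR14, at 0 in all overexpression libraries.

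The comparisons share libraries, so the values of the 3 comparisons are not independent of each other. Green tissue markers were also called in both lines. Of these 5 photosynthesis genes, all were called lower with overexpression and higher in the knockout, both against wild type, and 3 and 5 of them after median-ratio scaling. The shares of all genes were 23.4% lower with overexpression and 9.18% higher in the knockout, or 3.59% and 5.99% after that scaling. Their summed level was 3188 to 4248 TPM in overexpression libraries, 11229 to 14320 TPM in knockout libraries and 6110 to 8022 TPM in wild type libraries, in the same order as the summed SAUR level. The part of green tissue in the SAUR results was not tested.

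Other tissue markers moved less evenly. Their counts stand beside shares of all genes of 23.4% lower in the overexpression line and 6.31% lower and 9.18% higher in the knockout. After median-ratio scaling these shares were 3.59%, 7.8% and 5.99%. Of 7 silique wall and valve margin markers, 4 were lower in the overexpression line, and 2 were lower and 1 higher in the knockout. After median-ratio scaling none was called in the overexpression line and 3 were lower in the knockout. The list had sums of 513 to 613 TPM in overexpression, 507 to 758 TPM in knockout and 712 to 1094 TPM in wild type libraries. Of the 4 tested seed coat markers of 6 listed, 2 were lower in the overexpression line, or 0 with median-ratio scaling, and 1 higher in the knockout, with sums of 222 to 255, 274 to 326 and 243 to 249 TPM in overexpression, knockout and wild type libraries, and TT12 at or near 0. Neither of the 2 tested endosperm markers passed in either line, the list's sum of 3745 to 8014, 3016 to 3080 and 3755 to 6249 TPM in the same order of lines came almost all from EPR1, the one abundant gene of the list, and FIS2 was at or near 0 throughout. Their part in the SAUR results was not tested.

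The other genes of the auxin pathway were counted from lists of 10 kinds. The lists were chosen with earlier results of these data known, so their counts are a description only. The Aux/IAA repressors, themselves auxin-induced, had 21 tested genes of 29. In all of these lists, counts stand beside shares of all genes of 23.4% lower and 1.68% higher in the overexpression line and 6.31% lower and 9.18% higher in the knockout. In the knockout 7 were higher and 1 lower, with a list median of 0.32 beside 0.10 for all genes, or 4 and 1 with median-ratio scaling. In the overexpression line 6 were lower and 1 higher, with a list median of -0.51 beside -0.28 for all genes, or 2 and 1 with median-ratio scaling. Against the knockout, 14 were lower and 2 higher in the overexpression line, beside 43.1% and 6.16% of all genes. With median-ratio scaling 11 were lower and 2 higher there, beside 14.5% and 13.3% of all genes.

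IAA16 stood at 11.5, 8.89 and 16.2 TPM in overexpression, 46.3, 41.7 and 40.9 TPM in knockout and 28.6, 25.3 and 28.9 TPM in wild type libraries. The 3 lines did not overlap, and the log2 fold changes were -1.15 (SE 0.17) in the overexpression line and 0.62 (SE 0.17) in the knockout, the second not past without knockout replicate 1 or wild type replicate 1 or 2. IAA7 (1.23, SE 0.23) and IAA27 (0.75, SE 0.15) rose in the knockout, and IAA1 fell in the overexpression line (-1.26, SE 0.26), all under every alternative. IAA34, an unusual family member, went the other way, at 9.70, 8.37 and 9.97 TPM in overexpression, 1.04, 1.42 and 0 TPM in knockout and 2.81, 5.24 and 4.38 TPM in wild type libraries. It fell in the knockout by -1.57 (SE 0.29), and its rise in the overexpression line (1.03, SE 0.29) was not past without overexpression replicate 1 or wild type replicate 1, or with a pseudocount of 0.1 or 0.5 TPM.

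Genes of auxin supply were called in both directions. Of 6 tested auxin inactivation genes of 8, 4 were lower in the overexpression line, or 2 with median-ratio scaling, with a median of -0.57 beside -0.28 for all genes, and 3 were lower and 1 higher in the knockout, with a median of -0.42 beside 0.10. GH3.3, which joins auxin to amino acids and is auxin-induced, stood at 36.4, 34.6 and 37.1 TPM in overexpression, 91.0, 115 and 81.4 TPM in knockout and 65.5, 61.6 and 65.1 TPM in wild type libraries. The lines did not overlap. Its relatives GH3.5 (-0.64, SE 0.13), GH3.6 (-0.77, SE 0.17) and GH3.17 (-0.78, SE 0.18) fell in the knockout under every alternative. GH3.5 fell in the overexpression line as well, under every alternative (-0.89, SE 0.13). GH3.6 was called lower there too (-0.64, SE 0.17), but not after median-ratio scaling or without overexpression replicate 2 or wild type replicate 1.

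Among 4 tested auxin synthesis genes of 8, TAA1 was higher (0.49, SE 0.16) and YUC10 lower (-0.81, SE 0.25) in the overexpression line and none passed in the knockout, and both calls ended without single libraries. The median was 0.06 in the overexpression line and 0.01 in the knockout, or 0.30 and -0.07 with median-ratio scaling. TAA1 was not past without replicate 1 or 2 of the overexpression line, knockout replicate 1 or any wild type library, and YUC10 not without any overexpression library or wild type replicate 2 or 3. Of 7 tested transport genes of 12, PIN3 (-0.88, SE 0.15) and AUX1 (-0.63, SE 0.14), an auxin exporter and an importer, were lower in the overexpression line, AUX1 not after median-ratio scaling. No transport gene passed in the knockout, with medians of -0.35 in the overexpression line and 0.24 in the knockout.

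Of the 6 receptor genes, all tested, AFB5 was lower in the overexpression line (-0.66, SE 0.12), though not after median-ratio scaling, and TIR1 higher in the knockout (0.53, SE 0.14). TIR1 was not past with median-ratio scaling or without knockout replicate 1 or any wild type library. The list medians were -0.39 in the overexpression line and 0.25 in the knockout. None of the 15 ARF genes passed against wild type in either line, with medians of -0.24 in the overexpression line, or 0.06 with median-ratio scaling, and 0.11 in the knockout, near those of all genes. At an unadjusted p of 0.05, 2 ARF genes were lower in the overexpression line and 1 was higher and 1 lower in the knockout. With median-ratio scaling or quantile normalization 1 was called higher in the overexpression line, and with quantile normalization 1 lower in the knockout.

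Downstream of the SAUR proteins, 8 of 9 PP2C.D phosphatase genes were tested. PP2C.D7 stood at 6.55, 5.28 and 5.33 TPM in overexpression, 0.629, 1.25 and 1.35 TPM in knockout and 2.37, 3.08 and 1.69 TPM in wild type libraries, with no overlap between lines. Its log2 fold change was 1.01 (SE 0.21) for overexpression and -0.70 (SE 0.21) for the knockout, the fall not past without knockout replicate 1, overexpression replicate 1 or wild type replicate 1 or 2. PP2C.D3 (-0.69, SE 0.15) and PP2C.D6 (-0.40, SE 0.12) were lower in the overexpression line but not after median-ratio scaling, PP2C.D6 also not without overexpression replicate 1 or 2 or wild type replicate 2 or 3, and the list medians were -0.34 in the overexpression line and 0.06 in the knockout, or -0.03 in each with median-ratio scaling.

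Of 4 tested proton pump genes of 5, AHA2 (-0.56, SE 0.14) and AHA3 (-0.59, SE 0.14) fell in the knockout and none passed in the overexpression line, with list medians of -0.18 for overexpression, or 0.13 with median-ratio scaling, and -0.24 for the knockout. AHA2 was not past without knockout replicate 3 or wild type replicate 1 or 2, and AHA3 not without wild type replicate 1. The most abundant pump gene, AHA1, had log2 fold changes of -0.23 (SE 0.13) for overexpression and 0.09 (SE 0.13) for the knockout and did not pass.

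Expansins, proteins that loosen the wall as pumps acidify it, had 4 tested genes of 6 listed. Of these 4, 2 fell with overexpression and 3 rose in the knockout. EXPA10 stood at 7.15, 4.24 and 5.14 TPM in overexpression, 85.3, 60.8 and 85.8 TPM in knockout and 24.0, 20.5 and 25.3 TPM in wild type libraries. The 3 lines were far apart, with log2 values of -1.92 (SE 0.18) for overexpression and 1.68 (SE 0.18) for the knockout. EXPA1 (1.14, SE 0.18) and EXPA5 (1.04, SE 0.19) rose in the knockout, and EXPA4 fell in the overexpression line (-1.11, SE 0.22), and all 5 of these calls held under every alternative. The list medians were -0.76 in the overexpression line and 1.09 in the knockout.

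Of 7 PIF and brassinosteroid factor genes, whose products turn on growth genes including SAURs, PIF5 fell with overexpression (-0.79, SE 0.15) and rose in the knockout (0.59, SE 0.15). The fall was not past after median-ratio scaling, and the rise not without knockout replicate 1 or wild type replicate 1 or 3. PIF7 was higher (0.77, SE 0.25) and BZR1 (-0.37, SE 0.12) and BES1 (-0.49, SE 0.17) were lower in the overexpression line, but each of these 3 calls ended without several libraries, among them wild type replicate 1 and knockout replicate 1 for all 3, and the list medians were -0.36 in the overexpression line and 0.21 in the knockout.

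**Figure D5:**
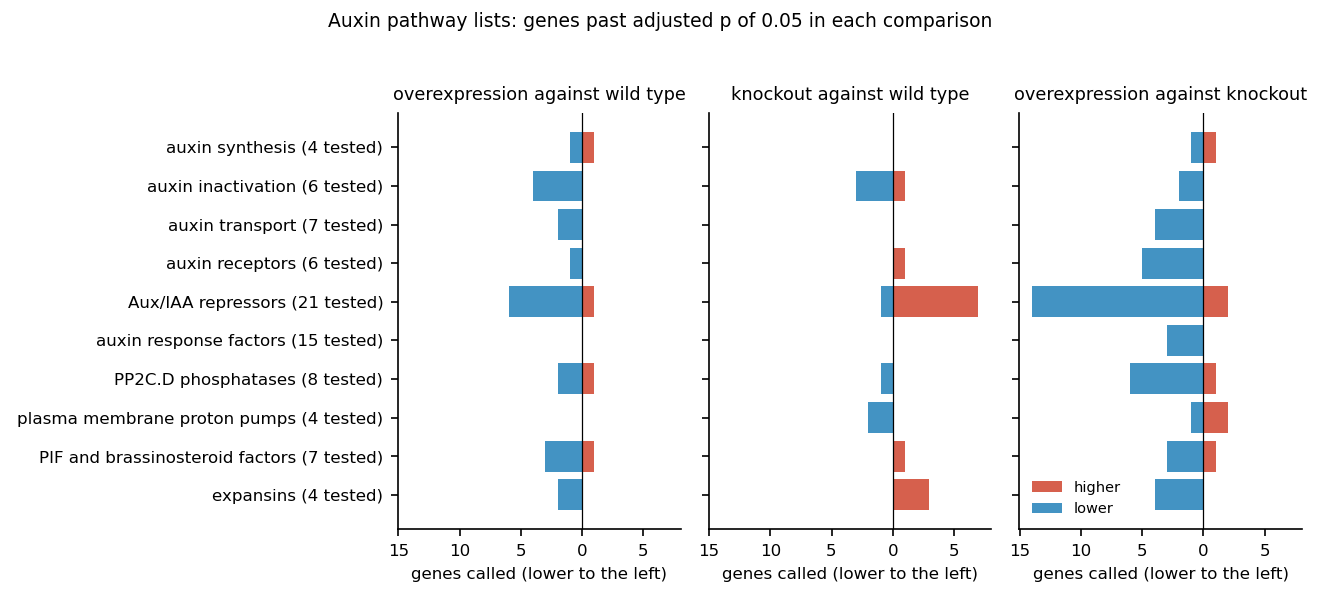
Number of genes called higher (red, right of 0) and lower (blue, left of 0) in each of 10 auxin pathway lists and 3 comparisons, with the number tested beside each name. Aux/IAA repressors have the most calls, 6 lower and 1 higher with overexpression and 7 higher and 1 lower in the knockout, both against wild type.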

How the data were processed

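Libraries of polyA RNA from whole siliques were made with TruSeq Stranded mRNA kits, per the labels' protocols. The authors deposited TPM values per gene with names and descriptions. TAIR10 is the genome build in the submitters' processing notes, while the sources used here do not give the aligner, the counter or the use of strand. TPM keep no counts, so depth is unknown, and no interval on counting error is given.

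Groups come from the genotype labels. All 9 libraries entered 1 fit with limma 3.58.1 in R 4.3.3 on log2(TPM + 1) with an abundance trend. The 16555 genes averaging 1 TPM or more over the libraries were tested, two-sided, with Benjamini-Hochberg adjustment and calls at 0.05. A log2 fold change is on that log2(TPM + 1) scale and understates changes of low genes, while a ratio of means is on the TPM scale. The fit was tested on simulated data. Python 3.11.15 with pandas 2.3.3 and biopython 1.88 read promoters, positions and coding sequences from the RefSeq TAIR10.1 reference, in which all 78 members were found. Coding identity was used, since no protein sequences were at hand.

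Members are rows whose description names the family. The members and the lists were chosen with earlier results of these data known. Named are, per comparison, up to 10 called members of largest change each way, the 10 most abundant members, array members by ranges, and called genes of the pathway lists. For overexpression against knockout the lists are given as counts. Alternatives were other pseudocounts, filters and scalings, 2 groups at a time, no trend, a replicate block, and leaving out each library. Same-numbered libraries deviated together between overexpression and wild type (correlations of 0.127 to 0.179, all above 0.1). Between overexpression and knockout the correlations were also positive (0.0743 to 0.161), though not all above 0.1. Between knockout and wild type they were -0.0605, 0.350 and 0.266 for replicates 1, 2 and 3, so not every pair deviated together. The pairing rests on the replicate numbers in the labels.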

Additional observations from a re-analysis of the deposited data

How the results depend on the processing

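Scaling moved the overexpression results most. Genes changed between overexpression and wild type numbered 1133, 1116 and 1225 with median-ratio scaling, quantile normalization and rescaling without ribosomal RNA and the 50 most abundant genes, in place of 4149, and SAUR genes 1, 1 and 1 in place of 7. Between overexpression and knockout the same scalings gave 4603, 4675 and 4678 genes in place of 8146. The summed SAUR level became 352.5, 355.6 and 349.4 TPM in overexpression and 402.3, 401.7 and 411.1 TPM in wild type siliques. A filter at a mean of 5 TPM, which tests fewer genes, left 5 SAUR genes changed between knockout and wild type. Leaving out 1 library gave 2152 to 4402 genes and 4 to 9 SAUR genes for overexpression against wild type, 1700 to 2812 and 5 to 10 for knockout against wild type, and 6448 to 8179 and 14 to 17 for overexpression against knockout. The summed level ran from 273.4 to 316.3 TPM in overexpression, 495.4 to 559.8 TPM in knockout and 423.5 to 434.5 TPM in wild type siliques. Reversals concerned members that were not past. SAUR36 for overexpression against wild type took 0.081, 0.096 and 0.038 under the 3 scalings. SAUR31 there took -0.17 without replicate 3 of both lines, and -0.19 to 0.28 without single libraries. SAUR36 for overexpression against knockout took -0.065 to 0.053 without single libraries. SAUR70 there took 0.048 with median-ratio scaling and 0.050 with quantile normalization. With the replicate number as a block, 5281 genes were changed between overexpression and wild type. Between knockout and wild type, where not every same-numbered pair deviated together, the block gave 3442 genes and 10 SAUR genes. Between overexpression and knockout it gave 8863 and 16. Among single genes, 1514 values kept direction and side of the threshold, 195 lost their call, 20 gained one and 11 reversed. The cause of these changes was not tested. Low members sit near the smallest values above 0, where TPM cannot separate them.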
